A study of Mus musculus with 5 samples.

Results

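The 10 genes described here carry glucose into the cell and through glycolysis to lactate: Slc2a1, Hk2, Gpi1, Pfkl, Aldoa, Tpi1, Pgk1, Eno1, Pkm and Ldha. They were listed by name, for their place in the pathway and with earlier results of these data known, out of 33696 gene expression features, and all 10 were found in both single-cell reactions from MC38 tumors. MC38 is a mouse colon carcinoma line, here injected under the skin of male C57BL/6J mice aged 8 to 10 weeks. On days 3, 6 and 9 mice received either isotype antibodies or checkpoint inhibition (CPI, antibodies to both PD-1 and CTLA4). Vehicle or the JAK1 inhibitor ABT-317 at 20 mg/kg followed on day 12. The study's sequencing methods count days from implantation, while its figure of MC38 tumors counts them from enrollment at a set tumor size. Tumors were taken on day 15 from all 4 groups: isotype, CPI, CPI + ABT-317, and isotype + ABT-317. Cells were sorted by the leukocyte antigen CD45, marked with a hashtag antibody that gives the treatment, and pooled into 2 reactions. The study's methods say that hashtags told samples and treatments apart, and the deposited key lists 1 hashtag per treatment and reaction without saying which mice it covers. A group therefore had 1 value per reaction, and p-values measure only the spread between the 8 sums of cells (4 treatments in 2 reactions).

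Glycolysis splits glucose into pyruvate in the cytosol and yields a little ATP without oxygen. Cells short of oxygen stabilize the transcription factor HIF-1, which binds short response elements and raises transcription of glucose transporter and glycolytic enzyme genes. Tumor cells, activated T cells and inflammatory or hypoxic macrophages are all known for high glycolytic flux, and in tumors they draw on the same glucose. RNA levels of these genes do not measure that flux.

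A form of the core of the hypoxia response element was read from the RefSeq promoter sequences (GRCm38.p6) because hypoxia genes outside the pathway enter the comparisons below. The letters ACGTG, or CACGT on the other strand, were searched in the 250 bases before each annotated start, with overlapping matches counted. They occurred before at least 1 start of 6 of the 10 genes, against 18.5% of 27025 genes, and before 7 of the 16 member starts, against 16.6% of 32851 starts. One match per gene is printed, 5′ to 3′ on the strand of the gene, with the matched letters in capitals.
Slc2a1, chr4:119108697-119108725, plus strand, 36 bases before the start: gtcccgccccggACGTGctccccaggccc
Hk2, chr6:82774490-82774518, minus strand, 52 bases before the start: aatgagcacatcCACGTcactgtccgggg
Aldoa, chr7:126799364-126799392, minus strand, 126 bases before a start: tgtggctcgagtCACGTcctagcggggcg
Pgk1, chrX:106186938-106186966, plus strand, 150 bases before the start: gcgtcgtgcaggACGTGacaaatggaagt
Pkm, chr9:59657140-59657168, plus strand, 75 bases before a start: ctccgatccggtCACGTccgcgccgcagc
Ldha, chr7:46845745-46845773, plus strand, 47 bases before a start: ggcccagcctacACGTGggttcccgcacg
A match is a run of letters, not a bound site. The genes compared with were not matched for base composition or for the number of starts per gene. The windows before the starts of Gpi1, Pfkl, Tpi1 and Eno1 did not hold these letters. Other forms of the element, in these windows or elsewhere in those genes, were not searched. They lie at chr7:34201327-34230336 (Gpi1), chr10:77986947-78009807 (Pfkl) and chr6:124810586-124814158 (Tpi1), all on the minus strand, and chr4:150236708-150248879 (Eno1) on the plus strand. Aldoa, Pkm and Ldha have several annotated starts, and the windows of neighboring starts can overlap.

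The reactions held 37774 and 27582 barcodes, of which 33762 and 23332 had at least 200 genes and under 10% mitochondrial UMIs, with 435031691 and 377184807 gene UMIs (molecules counted once each) over the barcodes of each reaction. Exactly 1 hashtag was called in 52.8% and 64.2% of the passing barcodes. Several were called in 13417 and 5554, and none in 2531 and 2803. In all, 1416 barcode sequences occurred in both reactions. Treatments differed in depth: in reactions 1 and 2, the median UMIs per cell were 5567 and 7572 with isotype, 2093.5 and 2800 with CPI, 16649 and 22854 with CPI + ABT-317, and 16653.5 and 23933 with isotype + ABT-317. Of the CPI cells, 94.1% and 88.9% had fewer than 2500 genes. The part that this depth gap has in differences between treatments was not tested beyond the thinning described below.

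Cells were placed in classes by their own marker UMIs. Cells with markers of a pair of classes were left out (356 and 344), and 10988 and 5436 cells fell in no class. The phagocyte-like class, defined by C1q, Ms4a7, Adgre1, Csf1r and related genes, held 6820 and 6294 cells. Within it, 619 and 604 Arg1 phagocyte-like cells expressed Arg1, Inhba or Mmp12 together at 10 or more UMIs per 10000, and 4009 and 3923 C1q phagocyte-like cells had under 2. Fibroblast-like cells numbered 1537 and 998, T-like cells 434 and 378, and endothelial-like cells 82 and 68. Numbers of cells per class follow the sort and are not results. The keratin markers with which a carcinoma cell was to be recognized were all but absent: Krt8 gave 46 and 35 UMIs in all, no cell had more than 2 of the 7 markers, and the keratin class was empty. The most abundant class, 13271 and 9613 cells with at least 2500 genes, no UMI of the leukocyte gene Ptprc and no marker class, therefore has no cell type name here and is called Ptprc-negative gene-rich. The marker lists hold no member, and free RNA from the gene-rich cells, which held most UMIs, can be present in every other class.

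Levels were the UMIs of a gene summed over a class, divided by all gene UMIs of that class and scaled to CPM, so they compare classes within a gene. They pool all treatments and include barcodes with several or no hashtags. Among 6 classes, 8 of the 10 genes had their highest mean in Arg1 phagocyte-like cells, and the other two, Pgk1 and Ldha, in gene-rich cells. Fibroblast-like cells had the lowest pooled mean of 8 genes. The exceptions were Tpi1, lowest in T-like cells, and Hk2, lowest in endothelial-like cells. The classes differ in their mix of treatments, since hashtagged fibroblast-like cells came mostly from CPI and phagocyte-like and gene-rich cells mostly from isotype, so this order is a description of the pooled cells. The fibroblast-like level depends most on which barcodes are taken: the 10 genes together made up 2728 CPM, 1788 in barcodes with exactly 1 hashtag and 1489 in cells with fewer than 2500 genes. With isotype + ABT-317 (17 and 7 cells) they made up 3802 and 8334 CPM in fibroblast-like cells, against 4025 and 4407 in C1q phagocyte-like cells. Comparisons within the same treatment and reaction are given further on.

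**Figure D1:**
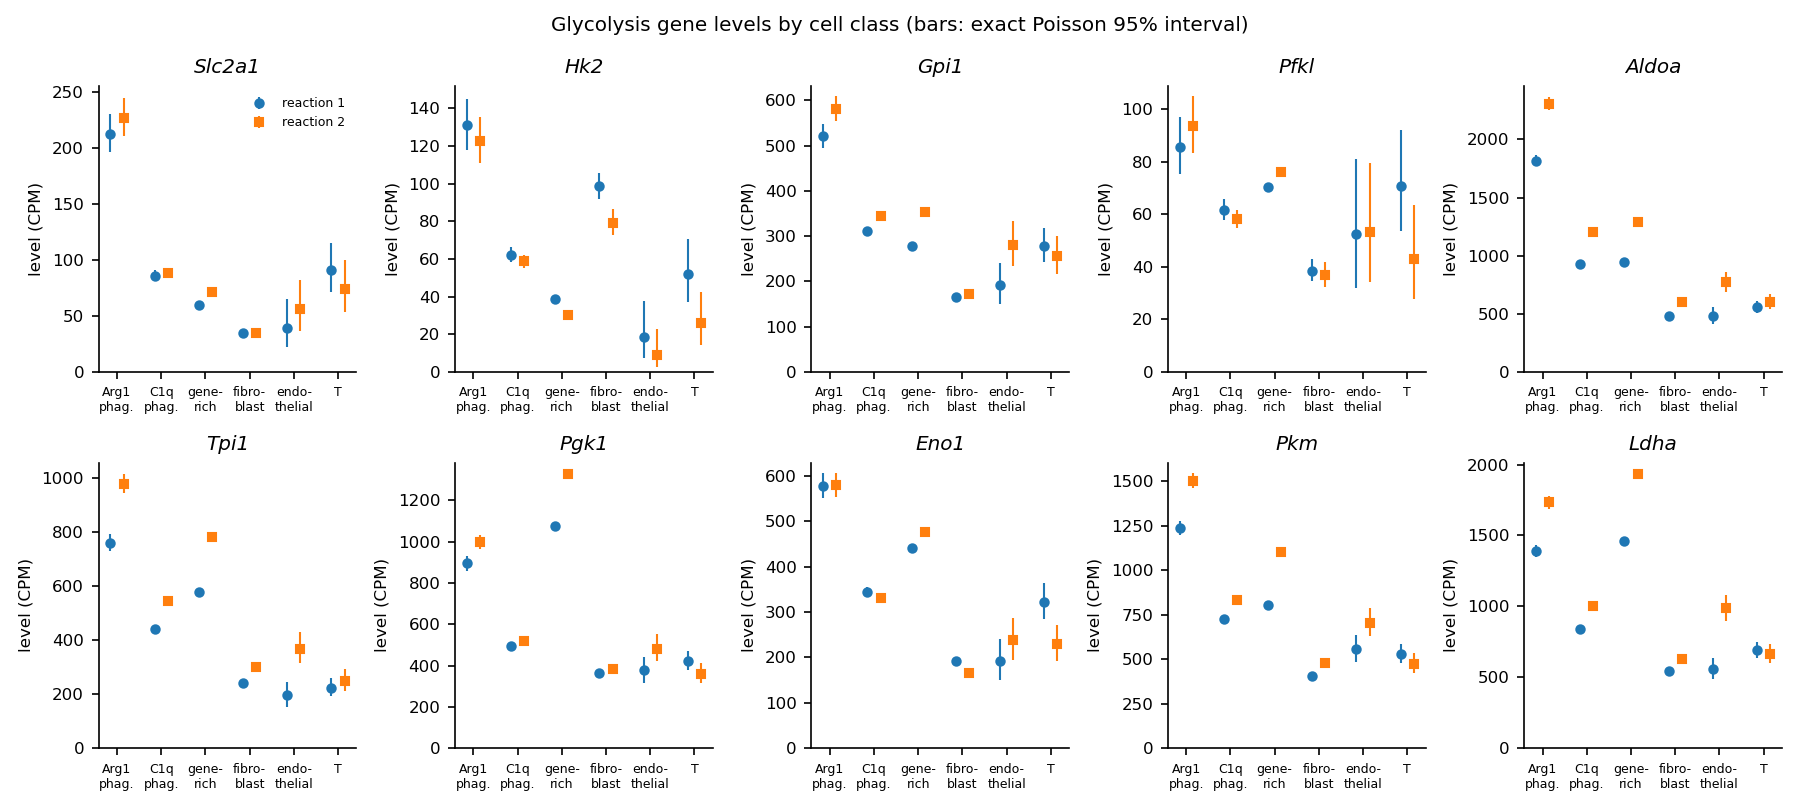
Level of each gene (CPM, linear axis from 0) in 6 cell classes, with circles for reaction 1, squares for reaction 2 and bars for the exact Poisson 95% interval, which covers counting error only. The Arg1 phagocyte-like points stand above the C1q phagocyte-like points in all 10 panels, and the gene-rich points stand highest for Pgk1 and Ldha.

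The genes of glucose entry separated the classes most. Slc2a1, which encodes the glucose transporter GLUT1, stood at 212 (95% interval 196 to 229.8) and 227 (210.2 to 244) CPM in Arg1 phagocyte-like cells of reactions 1 and 2, against 85.9 and 87.9 in C1q phagocyte-like, 91.0 and 74.1 in T-like, 59.7 and 71.1 in gene-rich, 39.3 and 55.6 in endothelial-like and 34.3 and 34.5 in fibroblast-like cells. The mean of the highest class was 6.38 times that of the lowest. The neighbors C1q phagocyte-like and T-like, and likewise T-like and gene-rich in reaction 2, had overlapping intervals, and those of endothelial-like cells overlapped with both gene-rich and fibroblast-like cells in both reactions.

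Hk2, the hexokinase that phosphorylates glucose and holds it in the cell, had another order. It was at 131 and 123 CPM in Arg1 phagocyte-like cells, 98.5 and 79.3 in fibroblast-like, 62.2 and 58.8 in C1q phagocyte-like, 51.8 and 25.8 in T-like, 38.8 and 30.4 in gene-rich, and 18.3 and 8.90 in endothelial-like cells. Hk2 was the only one of the 10 genes with fibroblast-like cells second in this pooled order, which did not hold within CPI, where Hk2 was at 102 and 87.7 CPM in fibroblast-like and 108 and 204 in C1q phagocyte-like cells.

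The upper enzymes differed less. Gpi1, which isomerizes glucose phosphate to fructose phosphate, was at 521 and 582 CPM in Arg1 phagocyte-like cells, 311 and 345 in C1q phagocyte-like, 278 and 352 in gene-rich, and 165 and 172 in fibroblast-like cells. Pfkl, a phosphofructokinase subunit of the committed step, had a narrow range, from 38.5 and 36.8 CPM in fibroblast-like to 85.6 and 93.6 in Arg1 phagocyte-like cells. Gene-rich cells were second for Pfkl, at 70.2 and 76.2 CPM. Aldoa, the aldolase that cleaves the hexose bisphosphate, was at 1818 and 2309 CPM in Arg1 phagocyte-like cells, 945 and 1285 in gene-rich, 925 and 1203 in C1q phagocyte-like, and 484 and 601 in fibroblast-like cells. For Gpi1 and Aldoa the gene-rich and C1q phagocyte-like means differed by less than the gap between the reactions.

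Further down the pathway, gene-rich cells were highest for Pgk1 and Ldha only. For Tpi1 they were second, as for Pfkl and Aldoa. Tpi1, which interconverts the triose phosphates, was at 761 and 979.8 CPM in Arg1 phagocyte-like, 579 and 782 in gene-rich, 440.0 and 547 in C1q phagocyte-like, and 243 and 302 in fibroblast-like cells. Pgk1, the kinase of the first ATP-yielding step, was at 1076 and 1328 CPM in gene-rich, 895 and 999 in Arg1 phagocyte-like, 497 and 517 in C1q phagocyte-like, and 364 and 383 in fibroblast-like cells. Ldha, the lactate dehydrogenase subunit that favors lactate, had the same order with 1461 and 1936, 1391 and 1733, 842 and 1006, and 548 and 631 CPM.

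Eno1 and Pkm kept the Arg1 phagocyte-like cells on top. Eno1, the enolase that makes phosphoenolpyruvate, was at 578 and 579 CPM there, 442 and 476 in gene-rich, 345 and 329.9 in C1q phagocyte-like, and 191 and 166 in fibroblast-like cells. Pkm, pyruvate kinase, was at 1237 and 1502, 802 and 1101, 726 and 832, and 407 and 477 CPM in the same classes. Counts of Eno1 are uncertain, since a near-identical copy, Eno1b, took 16164 and 21581 UMIs beside 185319 and 171006 for Eno1.

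Arg1 and C1q phagocyte-like cells came from the same tumors and hashtags, so they were compared within each treatment and reaction. All 10 genes were higher in Arg1 phagocyte-like cells, by 1.75-fold (Pfkl) to 3.02-fold (Slc2a1), in a test in which 26.5% of 7501 genes were called in either direction and 13.1% were called higher. The 6 sums with at least 20 cells of both classes entered the fit. The CPI sums held 11 and 16 Arg1 phagocyte-like cells and did not. In these CPI sums the Arg1 value was lower for Slc2a1 in reaction 1 (45.7 against 51.3 CPM). It was also lower for Hk2 (115 against 204) and Gpi1 (161 against 218) in reaction 2. These 3 Arg1 values rest on 1, 5 and 7 UMIs, and all other members were higher in both CPI sums.

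**Figure D2:**
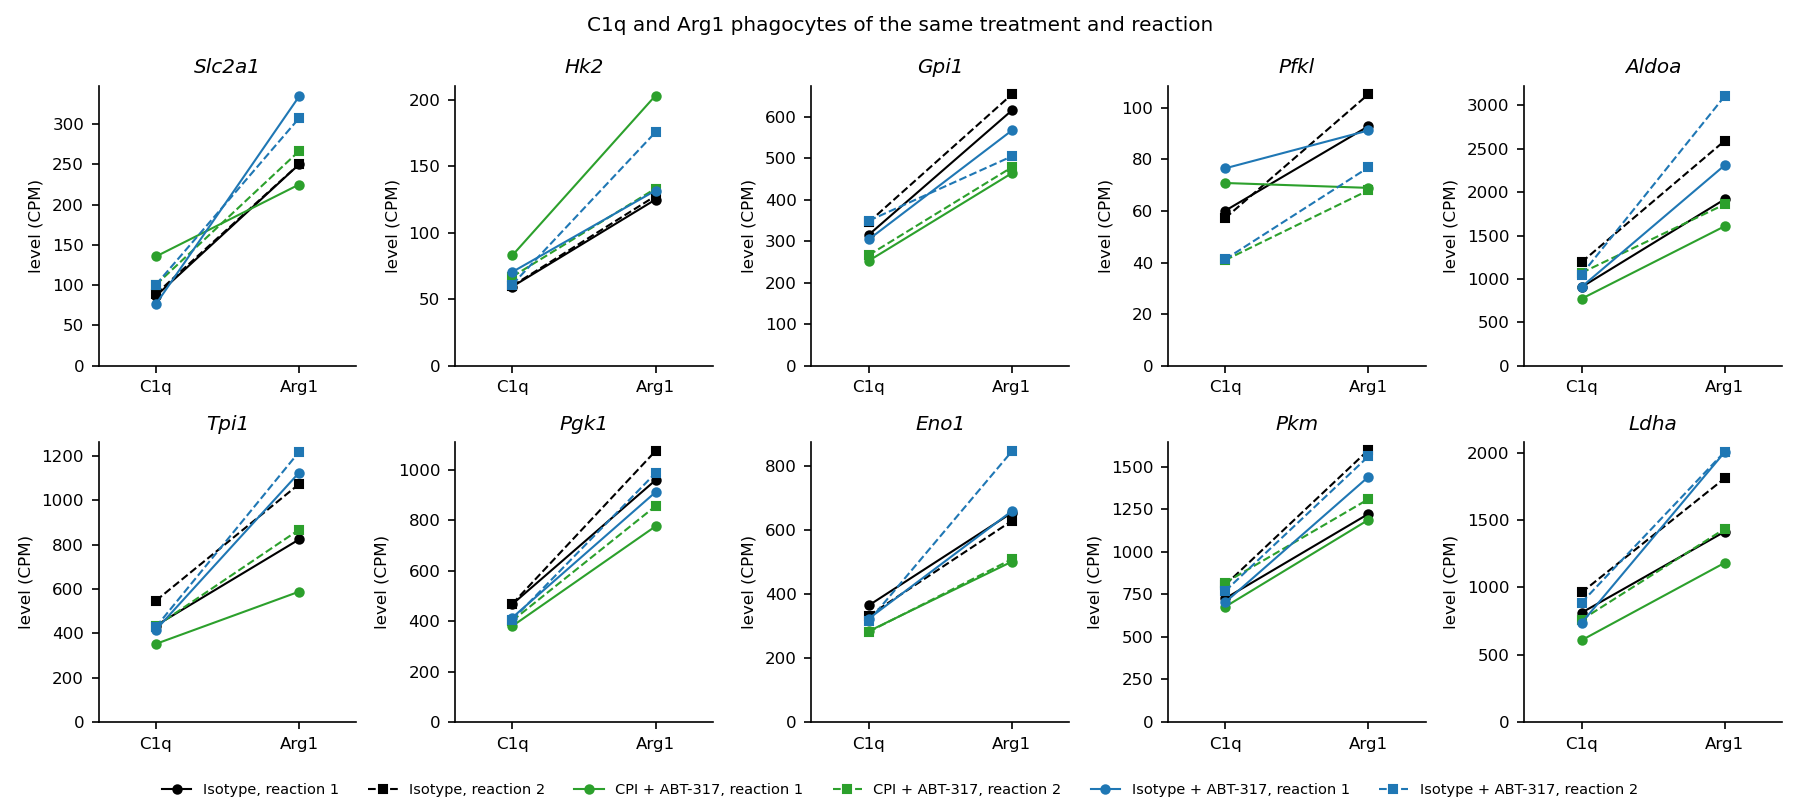
Level of each gene (CPM, linear axis from 0) in C1q and Arg1 phagocyte-like cells, joined within the same treatment and reaction (color for treatment, solid line with circles for reaction 1, dashed line with squares for reaction 2). The Arg1 value is the higher one in all 6 pairs of 9 genes, and for Pfkl in 5 of 6, the exception being CPI + ABT-317 in reaction 1.

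Slc2a1 in Arg1 phagocyte-like cells was at 250.0 and 250.2 CPM with isotype, 225 and 267 with CPI + ABT-317, and 334 and 307 with isotype + ABT-317. The C1q phagocyte-like cells of these sums had 86.5 and 89.2, 136 and 100.4, and 76.5 and 101. The ranges did not overlap, and the fitted log2 difference was 1.59 ± 0.11 (SE, 6 sums; edgeR, adjusted p = 3.55e-15).

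Aldoa was at 1918 and 2593 CPM with isotype, 1607 and 1860 with CPI + ABT-317, and 2310 and 3107 with isotype + ABT-317 in Arg1 phagocyte-like cells, and at 906 and 1193, 771 and 1070, and 908 and 1050 in C1q phagocyte-like cells. The lowest Arg1 value lay above the highest C1q value, and the log2 difference was 1.27 ± 0.08 (edgeR, adjusted p = 2.23e-16). Ldha gave 1414 and 1811, 1183 and 1436, and 2006 and 2009 CPM against 811 and 962, 607 and 759, and 735 and 887, again without overlap, with a log2 difference of 1.14 ± 0.08. For Pfkl the groups overlapped: 92.8 and 105, 68.9 and 68.0, and 91.2 and 76.9 CPM against 60.1 and 57.2, 70.8 and 40.9, and 76.5 and 41.2 (log2 difference 0.81 ± 0.12, edgeR, adjusted p = 2.86e-06). The other members lay between these, with log2 differences of 1.25 for Pgk1, 1.24 for Hk2, 1.19 for Tpi1, 1.08 for Eno1 and 1.00 for both Gpi1 and Pkm.

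Per cell and at equal depth, each of the 10 genes was detected in a larger share of Arg1 than of C1q phagocyte-like cells in both reactions. After each cell was thinned to 1000 UMIs (15 and 19 Arg1 and 130 and 138 C1q phagocyte-like cells were shallower and left out), Slc2a1 was detected in 19.4% and 19.7% of Arg1 and 8.35% and 7.79% of C1q phagocyte-like cells, where fibroblast-like cells had 2.77% and 2.21%. Unthinned, the Arg1 and C1q shares were 47.7% and 54.0%, and 24.5% and 26.6%. Aldoa was detected in 77.0% and 82.9% of thinned Arg1 and 52.9% and 58.8% of thinned C1q phagocyte-like cells.

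Genes of the hypoxia response were higher together with the 10. Of the 18 listed hypoxia-response genes, 15 were measured and 14 of these were higher in Arg1 phagocyte-like cells, among them Hilpda, a lipid droplet protein (log2 difference 2.86), Adm, the vasodilator adrenomedullin (2.59), and Egln3, an oxygen-sensing prolyl hydroxylase (2.39). Over all genes, 13.1% of 7501 were called higher. The median over the list was 1.76, beside -0.05 over all genes tested and 1.16 over the 10 members. Of 13 measured other genes of the pathway, 8 were higher, led by the aldolase Aldoc (1.41), the lactate exporter Slc16a3 (1.17) and the hexokinase Hk1 (1.12), with a median of 0.48.

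Cycling genes went the other way, while the number of respiration genes called said little. Of 15 oxidative phosphorylation genes, none was higher and 3 were lower: Ndufa4, a respiratory chain subunit (-0.45), the succinate dehydrogenase subunit Sdhb (-0.29) and the ATP synthase subunit Atp5a1 (-0.24). Over all genes, 26.5% of 7501 were called in either direction and 1003 of 7501 were called lower. All 7 cycling genes were lower, led by Pclaf (-1.31), Top2a (-1.21) and Stmn1 (-1.20). Klra4 and Cox6a2, which the gene-rich cells held at 256 and 264 CPM together, were at 25.4 and 21.2 CPM in Arg1 and 37.9 and 30.6 CPM in C1q phagocyte-like cells over all barcodes. Within the 6 sums of the fit they were lower in Arg1 cells in 4 and higher in 2, with isotype in reaction 2 (19.2 against 17.7 CPM) and with isotype + ABT-317 in reaction 1 (70.9 against 46.5 CPM). Their part in the result was not tested. Of the Arg1 phagocyte-like cells, 18.8% lay within 20% above the cut that defines them.

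The comparisons between classes from here on were not planned, and those with gene-rich cells were added after the data were seen. Gene-rich cells were above phagocyte-like cells in some of the 10 genes and below them in others. Over 8 sums, 4 of the 10 genes were higher in gene-rich cells and 3 were lower, where 77.7% of 13996 genes were called in either direction (41.3% higher, 36.4% lower), so the number called says little about these genes. Pgk1 (log2 difference 1.01 ± 0.08), Ldha (0.79 ± 0.07), Tpi1 (0.40 ± 0.10) and Eno1 (0.25 ± 0.07) were higher in gene-rich cells, and Hk2 (-1.42 ± 0.15), Slc2a1 (-0.90 ± 0.12) and Gpi1 (-0.22 ± 0.08) were lower, with SE over 8 sums. Pfkl, Aldoa and Pkm gave 0.14, -0.19 and 0.14, which did not pass the test. With either reaction left out, after thinning to 1000 UMIs, or without the sum as a block, 5 of the 10 were called, 2 higher and 3 lower.

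Other isoforms of the pathway also differed in both directions. Ldhb, the lactate dehydrogenase subunit that favors pyruvate (log2 difference 1.96), Pfkm (1.63) and Eno3 (1.19) were higher in gene-rich cells, and Hk3 (-7.39), Aldoc (-6.09) and Pfkfb3, which makes an activator of phosphofructokinase (-4.38), were lower. In all, 8 of 21 measured other pathway genes were higher and 7 lower, with a median of 0.09, as over all genes. Of 15 oxidative phosphorylation genes, 13 were higher in gene-rich cells and Sdha was lower (-0.47), and of 17 hypoxia genes 11 were higher, led by Stc2 (2.75), and 4 lower, led by Hilpda (-2.78). In this comparison 77.7% of 13996 genes were called (41.3% higher, 36.4% lower), so the numbers called in these lists say little.

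Against fibroblast-like cells, 9 of the 10 genes were higher in gene-rich cells and Hk2 was lower, where 46.3% of 11214 genes were called (21.9% higher, 24.4% lower). Only the 4 isotype and CPI sums had 20 cells of both classes. The log2 differences ran from 0.88 (Pfkl) to 1.88 ± 0.20 (Pgk1, edgeR, adjusted p = 2.08e-05), with 1.55 for Ldha, 1.52 for Eno1 and -1.19 ± 0.26 for Hk2. Without reaction 1 or without reaction 2, 5 or 6 of the 10 were called. Of 15 oxidative phosphorylation genes 12 were higher and of 7 cycling genes 6. Of 17 measured other pathway genes, 6 were higher, led by Slc16a3 (1.88) and the mutase Pgam1 (1.51), the neuronal enolase Eno2 (-5.83) and Pfkp (-0.96) were lower, and the median was -0.07. Of 17 hypoxia genes 8 were higher, led by Stc2 (1.87), and Adm (-4.84) and Hif1a (-1.06) were lower.

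**Figure D3:**
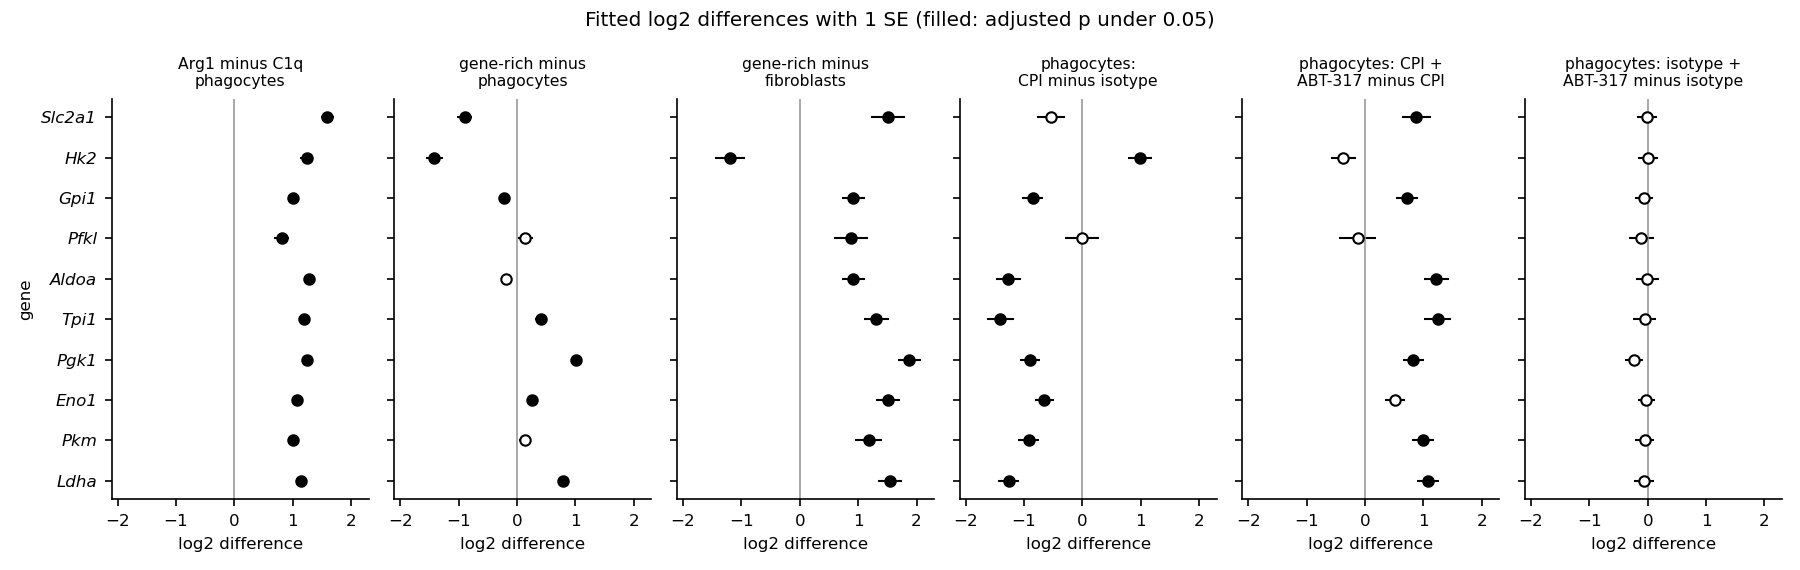
Fitted log2 difference of each gene with 1 SE in 6 comparisons, on a common axis, with filled points for an adjusted p under 0.05. All points are filled and right of 0 for Arg1 minus C1q phagocyte-like cells, and none is filled for isotype + ABT-317 minus isotype, where the differences lie between -0.24 and 0.01.

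Phagocyte-like cells compared with fibroblast-like cells in the same 4 sums gave 6 higher genes, Slc2a1 (log2 difference 2.04 ± 0.31), Eno1 (1.23), Gpi1 (0.95), Aldoa and Pgk1 (0.85 each) and Pkm (0.77), where 35.6% of genes were called (16.5% higher). With 1 reaction left out, 1 or 2 of the 10 were called. In T-like cells compared with phagocyte-like cells (3 sums), Hk2 was the only member called and was lower (-2.29 ± 0.38, edgeR, adjusted p = 1.24e-06), where 30.1% of 5516 genes were called (18.0% lower). The 3 sums were CPI in both reactions (295 and 234 T-like cells) and isotype in reaction 2 (20 cells). Phagocyte-like levels of most members differed with CPI, as given below. Members not called here were therefore not shown to be alike in the other treatments. Ldha (0.12 ± 0.31) and Pgk1 (-0.09 ± 0.31) had the smallest differences. Slc2a3, a second glucose transporter, was the only other pathway gene higher in T-like cells (3.52), and Hk3 (-3.36), Pfkfb3 and Mpc1 were lower.

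The treatment comparisons asked whether CPI, and ABT-317 added after CPI, went with other glycolysis gene levels within a class. In phagocyte-like cells, 7 of the 10 genes were lower with CPI than with isotype and Hk2 was higher, where 17.6% of 8850 genes were called in either direction, 7.44% lower and 10.2% higher. With CPI + ABT-317, 7 genes were higher than with CPI, where 11.9% were called, 5.47% higher. The comparisons share the CPI sums, which held 162 and 132 cells with medians of 1544 and 1986 UMIs, against 3912 and 4223 cells with medians of 3126.5 and 3872 with isotype.

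Tpi1 was at 502 and 655 CPM with isotype, 171 and 271 with CPI, 439 and 589 with CPI + ABT-317, and 530.1 and 617 with isotype + ABT-317. Both CPI values lay below all others. The log2 difference was -1.40 ± 0.23 for CPI minus isotype (edgeR, adjusted p = 0.000105) and 1.24 ± 0.24 for CPI + ABT-317 minus CPI (adjusted p = 0.000796).

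Aldoa, in the same order of treatments, was at 1075 and 1475, 439 and 632, 1122 and 1345, and 1137 and 1480 CPM, with log2 differences of -1.27 ± 0.21 and 1.22 ± 0.22. Ldha was at 921 and 1160, 422 and 455, 839.7 and 989, and 941 and 1108 CPM, with -1.26 ± 0.19 and 1.09 ± 0.19. In both genes the CPI sums were again lowest, without overlap. Pkm (-0.92 and 0.99), Pgk1 (-0.90 and 0.83) and Gpi1 (-0.85 and 0.72) were called in both comparisons. The second call of Gpi1 was lost with the stricter gate (0.57, adjusted p = 0.109), without the CPI sum of reaction 1 (0.60, adjusted p = 0.154) and without the CPI + ABT-317 sum of reaction 2 (0.66, adjusted p = 0.088). Eno1 was called with CPI only (-0.65, then 0.51 with adjusted p = 0.058), a call lost after thinning (-0.56, adjusted p = 0.0744) and without the CPI sum of reaction 1 (-0.62, adjusted p = 0.0719).

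**Figure D4:**
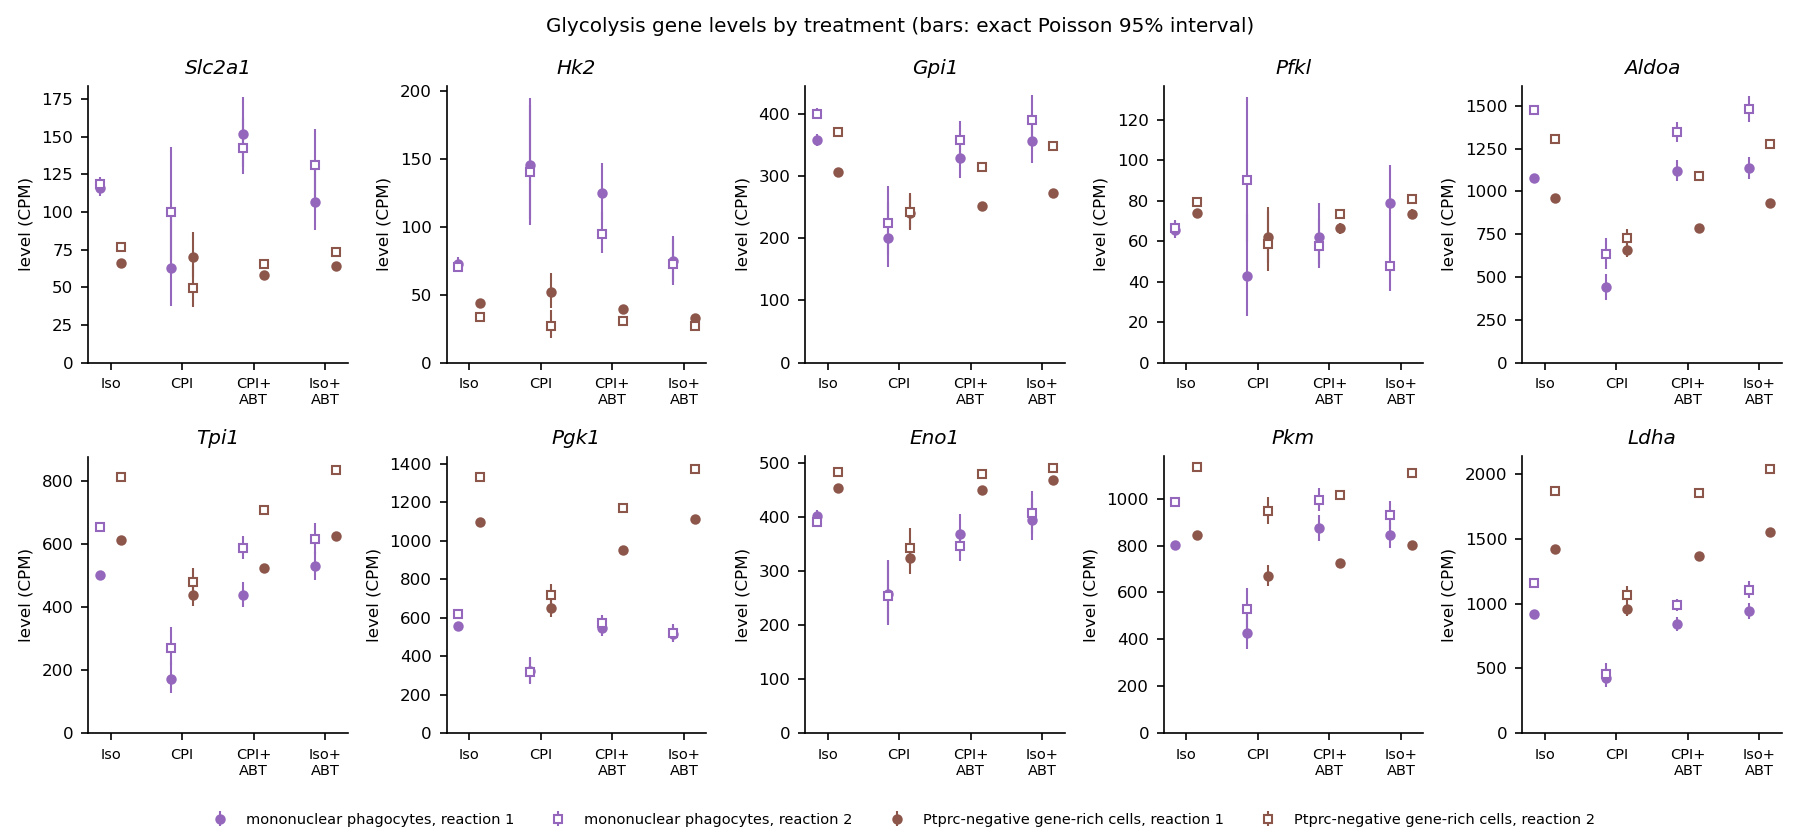
Level of each gene (CPM, linear axis from 0) by treatment in phagocyte-like and Ptprc-negative gene-rich cells, with filled symbols for reaction 1, open symbols for reaction 2 and bars for the exact Poisson 95% interval (Iso, isotype; ABT, ABT-317). In phagocyte-like cells the 2 CPI values are the lowest for Slc2a1, Gpi1, Aldoa, Tpi1, Pgk1, Eno1, Pkm and Ldha, and the highest for Hk2.

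The 3 remaining genes, Hk2, Slc2a1 and Pfkl, were not called lower with CPI. Hk2 in phagocyte-like cells was at 72.8 and 70.2 CPM with isotype, 145 and 140.4 with CPI, 125 and 94.8 with CPI + ABT-317, and 75.1 and 72.8 with isotype + ABT-317. It was higher with CPI by 0.98 ± 0.21 on the log2 scale (edgeR, adjusted p = 0.0014), a call that was lost after thinning (0.60, adjusted p = 0.211) and with the other hashtag rule (0.71, adjusted p = 0.0601). Slc2a1 was at 116 and 118, 62.7 and 100.3, 152 and 143, and 107 and 131 CPM, a difference of -0.54 ± 0.24 with CPI (adjusted p = 0.136) and a rise of 0.88 ± 0.25 with CPI + ABT-317 (adjusted p = 0.0224). Both CPI values of Slc2a1 lay below the other 6. The rise rested on the CPI sum of reaction 1, without which it was 0.54 (adjusted p = 0.325), and it did not pass the test after thinning (0.90, adjusted p = 0.165), with the stricter gate (0.77, adjusted p = 0.141) or with fewer than 2500 genes per cell (0.80, adjusted p = 0.0729). Pfkl gave -0.01 ± 0.30 and -0.13 ± 0.32.

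ABT-317 without CPI went with no called member. Of 8850 genes 8 were called by edgeR (0.0904%), and 405 had an unadjusted p under 0.05. The member differences lay between -0.24 ± 0.15 (Pgk1) and 0.01 ± 0.17 (Hk2). The difference between the ABT-317 effects with and without CPI was tested as an interaction: 5 genes were called, Tpi1 (1.30 ± 0.30), Aldoa (1.23 ± 0.29), Ldha (1.15 ± 0.25), Pgk1 (1.07 ± 0.23) and Pkm (1.04 ± 0.25), where 6.00% of all genes were called (2.93% higher). With the reaction as a block 8 were called, where 12.6% of all genes were, and with cells of fewer than 2500 genes 2. The CPI sum of reaction 1 carried part of these counts: without it the interaction called 2, and CPI + ABT-317 minus CPI called 4 of the 10, with Tpi1 at 0.92 (adjusted p = 0.0539).

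Phagocyte-like cells of the CPI sums differed in other listed genes as well. Of 7 cycling genes, 5 were lower with CPI than with isotype, led by Stmn1 (-2.39), Pclaf (-2.22) and Birc5 (-2.13), and the same 3 led the 5 that were higher with CPI + ABT-317 than with CPI (2.25, 2.23 and 2.09). Of 16 hypoxia genes, 4 were higher with CPI, including Hif1a (1.86), Hilpda (1.04) and Ndrg1 (1.00), and 4 were lower, including Ankrd37 (-1.56), Bnip3 (-1.22) and Mif (-0.90), so this list did not move one way. Among 14 other pathway genes, Gapdh (-1.16) and Pgam1 (-0.91) were lower with CPI, and Hk3 (1.14), Gapdh (1.00) and Slc16a3 (0.91) led the 4 that were higher with CPI + ABT-317 than with CPI. The medians over all genes were -0.04 and 0.02. Of all genes, 10.2% were called higher and 7.44% lower with CPI than with isotype. With CPI + ABT-317, 5.47% were called higher than with CPI.

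The make-up of the phagocyte-like class was also counted in each sum. Arg1 phagocyte-like cells were 7.49% (exact 95% interval 6.68 to 8.36) and 7.77% of it with isotype, 6.79% (3.44 to 11.8) and 12.1% (7.09 to 18.9) with CPI, 22.5% (17.8 to 27.7) and 25.0% (20.5 to 30.0) with CPI + ABT-317, and 7.96% and 9.96% with isotype + ABT-317. Both CPI + ABT-317 values stood above the other 6. The intervals cover the counting of cells only and not the spread between mice or sums, and the difference was not tested. A level over the whole class mixes the number of Arg1 phagocyte-like cells with the RNA per such cell. Within Arg1 phagocyte-like cells the 10 genes made up 8074 and 9915 CPM with isotype and 4389 and 4610 with CPI (11 and 16 cells). They made up 6804 and 7783 CPM with CPI + ABT-317, and 9576 and 10792 with isotype + ABT-317. The part of this make-up in the differences was not tested, and the comparisons were repeated in C1q phagocyte-like cells alone.

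In C1q phagocyte-like cells, 7 genes were again lower with CPI than with isotype and Hk2 was higher, where 15.3% of 7388 genes were called (6.97% lower, 8.31% higher). Aldoa was at 906 and 1193 CPM with isotype, 405 and 422 with CPI, 771 and 1070 with CPI + ABT-317, and 908 and 1050 with isotype + ABT-317 (-1.40 ± 0.22 for CPI minus isotype, edgeR, adjusted p = 0.0001). With CPI + ABT-317, 5 genes were higher than with CPI, Slc2a1 (1.24), Aldoa (1.18), Pkm (0.98), Tpi1 (0.93) and Ldha (0.87), and Hk2 was lower (-1.03), where 12.0% were called (5.66% higher, 6.36% lower). Isotype + ABT-317 gave no called member (0.0677% of genes called by edgeR, 318 genes at an unadjusted p under 0.05), and the interaction 4, where 6.84% were called (3.53% higher). With the reaction as a block the interaction called 8 (7 higher and 1 lower), where 11.6% of genes were called, and with the other hashtag rule it called none. After thinning, CPI minus isotype called 5 and CPI + ABT-317 minus CPI 3, and the other hashtag rule also gave 3 for the latter. Klra4 and Cox6a2 together were at 45.6 and 47.7 CPM in these cells with CPI, 32.8 and 17.7 with isotype and 36.4 and 17.4 with CPI + ABT-317, and the fibroblast markers at 564 and 415, 407 and 308, and 455 and 112 CPM. In each reaction both were higher with CPI than in these 2 groups, while isotype + ABT-317 had 46.5 and 14.8, and 587 and 330 CPM. In the whole phagocyte-like class the values were 39.6 and 30.1 with CPI against 33.0 and 23.3 with isotype, and 491 and 317.5 against 498 and 491 CPM. With CPI + ABT-317 they were 25.8 and 27.1, and 342 and 230 CPM. With isotype + ABT-317 they were 46.9 and 12.6, and 494 and 379 CPM. Their part in the results was not tested. The CPI sums held 93 and 66 C1q phagocyte-like cells, and the counts fell without either of them: CPI minus isotype called 3 without the CPI sum of reaction 1 and 5 without that of reaction 2, and CPI + ABT-317 minus CPI called 2 and 3. Without the CPI + ABT-317 sum of reaction 2 the latter called 3. The interaction called 1 without either the CPI sum of reaction 1 or the CPI + ABT-317 sum of reaction 2, and 2 without either the isotype sum of reaction 2 or the isotype + ABT-317 sum of reaction 1.

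In gene-rich cells the CPI sums were small, 69 and 46 cells against 3727 and 3498 with isotype. Their medians were 19619 and 23261.5 UMIs against 16563 and 22510. The class needs at least 2500 genes, which 94.1% and 88.9% of CPI cells did not have. Like depth therefore follows in part from the gate and does not show that the depth gap is absent. Pgk1 was at 1097 and 1334 CPM with isotype, 649 and 720.4 with CPI, 952 and 1173 with CPI + ABT-317, and 1115 and 1372 with isotype + ABT-317. Eno1 was at 454 and 483, 325 and 343, 451 and 481, and 469 and 491 CPM. In both genes the CPI values lay below the other 6.

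These were the 2 genes called lower with CPI (Pgk1 -0.98 ± 0.17, edgeR, adjusted p = 0.0154; Eno1 -0.64 ± 0.11, adjusted p = 0.0143), where 4.56% of 15297 genes were called (2.20% lower). Ldha, at 1419 and 1871 CPM with isotype and 955 and 1069 with CPI, had -0.85 ± 0.21 with adjusted p = 0.0578. All 10 differences were negative, from -0.11 (Hk2) to -0.98. With CPI + ABT-317, Eno1 alone was higher than with CPI (0.67 ± 0.11, adjusted p = 0.0269), where 1.66% of genes were called (0.798% higher). The calls of Pgk1 and Eno1 with CPI were lost without either CPI sum or without the isotype sum of reaction 2. The call of Eno1 with CPI + ABT-317 was lost without any of the 4 sums compared. A fit without 1 sum leaves 1 sum in its treatment. The number of all genes called also moved between these fits, so the number of members called in them says little.

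In this class the reactions stood apart: Aldoa was at 961 CPM with isotype in reaction 1 and 1305 in reaction 2, and at 659 and 725 with CPI. With the reaction as a block, 8 members were called lower with CPI, where 16.8% of all genes were called in either direction, and 8 higher with CPI + ABT-317, where 11.8% were. Isotype + ABT-317 called no member (0.00654% of genes called, 1161 at an unadjusted p under 0.05). With the block it called 5, where 26.2% of all genes were called, 4 of them higher and 1 lower. The interaction called none (0.242% of genes called, 1714 at an unadjusted p under 0.05), and 7 with the block, where 10.0% of all genes were called. Of 17 hypoxia genes 7 were lower with CPI than with isotype, led by Ankrd37 (-2.07), Car9, a carbonic anhydrase (-1.47), and Bnip3 (-1.38), and 4 were higher with CPI + ABT-317 than with CPI, led by Bnip3 (1.15). No cycling gene was lower with CPI, and Cdk1 was higher with CPI + ABT-317 than with CPI (0.98). Over all genes, 2.20% were called lower with CPI than with isotype, and 0.798% higher with CPI + ABT-317 than with CPI.

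Fibroblast-like cells came mostly from CPI tumors, 849 and 604 cells, against 37 and 26 with isotype, 12 and 16 with CPI + ABT-317, and 17 and 7 with isotype + ABT-317. All 10 genes together made up 1399 and 1496 CPM with CPI, 3136 and 4607 with isotype, 3153 and 3286 with CPI + ABT-317, and 3802 and 8334 with isotype + ABT-317. The CPI sums were lowest, and they also had the most marker RNA, 84185 and 92775 CPM of the fibroblast markers against 32843 to 78868 in the other 6 sums. The part of these marker transcripts, or of RNA from other cells, in the lower CPI level was not tested.

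Pfkl was the 1 member called in fibroblast-like cells, lower with CPI (59.0 and 114 CPM with isotype, 21.9 and 16.6 with CPI; -1.92 ± 0.44, edgeR, adjusted p = 0.0276), where 4.91% of 3912 genes were called (2.17% lower). With the reaction as a block 3 members were called, where 8.28% of genes were. Slc2a1 gave -1.82 ± 0.56 (adjusted p = 0.0807), at 59.0 and 46.4 CPM against 12.6 and 12.3. CPI + ABT-317 minus CPI (0.486% of genes called, 370 at an unadjusted p under 0.05), isotype + ABT-317 minus isotype (0.0511%, 198) and the interaction (0%, 249) called no member, with as few as 7 cells in a sum. The call of Pfkl with CPI was lost without either CPI sum or without the isotype sum of reaction 2. A fit without 1 sum leaves 1 sum in its treatment. The number of all genes called also moved between these fits, so the number of members called in them says little.

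Over 20 class sums (10 classes in 2 reactions), the genes outside the 10 and the markers whose log2 level followed the mean of the 10 most closely, of 3292 candidates, were Gapdh (Pearson r = 0.92), the glycolytic dehydrogenase, Bnip3 (0.88), a mitochondrial autophagy receptor, Atp6v1c1 (0.86), a proton pump subunit, the galectin Lgals3 (0.85) and the proteoglycan Sdc4 (0.83). The classes share libraries and differ in depth, so this is a description. Gapdh was at 2022 and 2093 CPM in Arg1 phagocyte-like, 1399 and 1605 in gene-rich, 1253 and 1308 in C1q phagocyte-like and 539.7 and 523 in fibroblast-like cells. Among the members themselves, the r with that mean was highest for Aldoa (0.93) and lowest for Hk2 (0.54). The planned comparisons of keratin with fibroblast cells, neutrophils with Ly6c2 monocytes and CD8+ with regulatory T cells were not made, since no sum held 20 cells of both.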

How the data were processed

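The authors deposited UMI counts per gene and barcode (10x Genomics, GRCm38/mm10), made with Cell Ranger, version 3.1.0 per the labels and 8.0.1 per the file headers, together with hashtag counts. From these counts, barcodes with at least 200 genes and under 10% mitochondrial UMIs were kept, without the upper limit of 2500 genes that the study states, since it removes most barcodes of some treatments. A 2-component fit per hashtag called it present at a posterior over 0.5, and barcodes with exactly 1 treatment hashtag entered the tests. No doublet caller was run. Classes were set by marker UMIs per 10000, and counts were summed per class, treatment and reaction. Sums were tested with edgeR 4.0.16 in R 4.3.3 (TMM, filterByExpr, quasi-likelihood test, two-sided, Benjamini-Hochberg over all genes, threshold 0.05). Class comparisons needed 20 cells of both classes in a sum and had the sum as a block. Treatment comparisons had 8 sums in 1 fit, without a block. The study's methods name DESeq2, here an alternative (1.42.0). The same reaction number means the same library, so the numbers pair the sums. The main treatment fits leave this pairing out, and the fits with the reaction as a block are given as an alternative. Deviations of sums of 1 reaction correlated at 0.36 to 0.91 in gene-rich, 0.09 to 0.40 in phagocyte-like, 0.04 to 0.33 in C1q phagocyte-like and 0.00296 to 0.383 in fibroblast-like cells. CPM levels have exact Poisson and shares exact Clopper-Pearson 95% intervals, which cover counting error only. Alternatives were another scaling, no filter on low counts, gene and mitochondrial limits, a stricter gate, another hashtag rule, thinning to 1000 UMIs per cell and leaving out each reaction or sum. The text names all 10 members, at most the 3 most changed called genes per list and direction, and the 5 genes most alike. A second Aldoa identifier (405 and 430 UMIs) was not used. The tests were tried on simulated data. The 10 genes and the lists were chosen with earlier results of these data known.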

Additional observations from a re-analysis of the deposited data

Results flagged for a closer look

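In phagocyte-like cells the effect of ABT-317 after CPI differed from its effect after isotype for 5 members, by the interaction test (edgeR, adjusted p from 0.00455 to 0.0113): Tpi1 (log2 1.30), Aldoa (1.23), Ldha (1.15), Pgk1 (1.07) and Pkm (1.04). In C1q phagocyte-like cells alone 4 members did: Aldoa (1.35), Tpi1 (1.22), Pkm (1.10) and Ldha (1.06), with adjusted p from 0.00539 to 0.0258. These calls depend on the settings. In phagocyte-like cells Tpi1, Aldoa and Pkm were lost with fewer than 2500 genes per cell and without the CPI sum of reaction 1, and Tpi1, Pkm and Pgk1 with the other hashtag rule. In C1q phagocyte-like cells 0 members were called with the other hashtag rule, 2 after thinning and 1 without the CPI sum of reaction 1. In each case the value with CPI + ABT-317 was higher than with CPI in both reactions. The C1q phagocyte-like cells are part of the phagocyte-like class, and both results rest on the CPI sums, which were the smallest and shallowest. No group had 4 or more samples, so no single sample was tested for standing apart.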

How the results depend on the processing

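No member called in a comparison changed direction under any alternative that could be run: of the repeated member tests, 940 stayed called and 134 fell short of the threshold. All values below are numbers of the 10 genes called, against the number in the report in brackets. Without a replicate block phagocyte-like minus fibroblast-like cells gave 3 (6), and at under 5% mitochondrial UMIs T-like minus phagocyte-like cells gave 3 (1). With the reaction as a replicate block, the interaction gave 8 in phagocyte-like (5) and 8 in C1q phagocyte-like cells (4); in gene-rich cells CPI minus isotype gave 8 (2), CPI + ABT-317 minus CPI 8 (1), isotype + ABT-317 minus isotype 5 (0) and the interaction 7 (0), and in fibroblast-like cells CPI minus isotype gave 3 (1). The block changed no other count by over 1.5 times. Cells of fewer than 2500 genes gave 2 for the phagocyte-like interaction (5) and 0 for CPI minus isotype in fibroblast-like cells (1). The other hashtag rule gave 3 for the phagocyte-like interaction (5), 3 for CPI + ABT-317 minus CPI (6) and 0 for the interaction (4) in C1q phagocyte-like cells, 0 for CPI + ABT-317 minus CPI in gene-rich cells (1), and 7 for CPI minus isotype (1) and 1 for CPI + ABT-317 minus CPI (0) in fibroblast-like cells. Thinning gave, in C1q phagocyte-like cells, 5 for CPI minus isotype (8), 3 for CPI + ABT-317 minus CPI (6) and 2 for the interaction (4), 0 for CPI + ABT-317 minus CPI in gene-rich cells (1), and 0 for CPI minus isotype in fibroblast-like cells (1). Without the filter on low counts, gene-rich cells gave 8 for CPI minus isotype (2), 6 for CPI + ABT-317 minus CPI (1) and 3 for the interaction (0), and fibroblast-like cells 4 for CPI minus isotype (1). DESeq2 gave 6 and 3 for the first pair of gene-rich comparisons and 2 for CPI minus isotype in fibroblast-like cells, and under 5% mitochondrial UMIs the gene-rich pair gave 4 and 2. The stricter gate gave 2 for CPI + ABT-317 minus CPI in gene-rich cells (1) and 0 for CPI minus isotype in fibroblast-like cells (1). The number of all genes called moved under these settings too, and also with a reaction or a sum left out. A number of members called therefore says little without that share. The cause of these shifts was not tested.

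With 1 reaction left out, Arg1 minus C1q phagocyte-like cells gave 9 to 10, gene-rich minus phagocyte-like cells 5 (7), gene-rich minus fibroblast-like cells 5 to 6 (10), phagocyte-like minus fibroblast-like cells 1 to 2 (6), and T-like minus phagocyte-like cells 1 without reaction 1. With 1 sum left out, the counts ran, in the order CPI minus isotype, CPI + ABT-317 minus CPI, and interaction, from 7 to 8, 4 to 7 and 2 to 7 in phagocyte-like cells, from 3 to 8, 2 to 6 and 1 to 5 in C1q phagocyte-like cells, from 0 to 6, 0 to 3 and 0 to 0 in gene-rich cells, and from 0 to 9, 0 to 1 and 0 to 0 in fibroblast-like cells. Isotype + ABT-317 minus isotype stayed at 0 in all 4 classes.

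The summed level of the 10 genes, 2728 CPM in fibroblast-like cells, was 1489 with fewer than 2500 genes per cell, 1948 with the stricter gate, 1788 in cells with 1 hashtag and 1891 as a mean over cells. In T-like cells it was 3109, and 2795, 2817, 2715 and 2618 under the same settings, and in endothelial-like cells 3305, and 2297 with fewer than 2500 genes per cell. Gene-rich cells could not be tested with fewer than 2500 genes, since none has so few, nor T-like cells without reaction 2. With 2 sums per treatment and as few as 7 cells in a fibroblast-like sum, a difference that was not called was not shown to be absent.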
